A study of Mus musculus with 7 samples.

Results

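Ionotropic and metabotropic glutamate receptors, neuronal glutamate transporters and the scaffold proteins of glutamate synapses were compared between CicKO and Wildtype mouse cerebellum. The members are the genes of the AMPA, NMDA, kainate, delta and metabotropic receptor families, the vesicular transporters Slc17a6, Slc17a7 and Slc17a8, the uptake carriers Slc1a1 and Slc1a6, and the Homer, Dlg and Shank scaffold genes. They were taken by gene symbol, as a list drawn up with earlier results of these data known, and all 41 of them were found among the 24421 genes counted in each library. RNA sequencing had been done on 4 CicKO and 3 Wildtype libraries from cerebellum of C57BL/6 mice. The CicKO mice carried En1-Cre and a floxed Cic gene on both alleles (En1-Cre; Cicflox/flox), and the Wildtype group is labelled Cicflox/+, with a single floxed allele and no Cre named. Both groups thus carry at least 1 floxed allele. En1 drives Cre in the embryonic midbrain and anterior hindbrain, so that floxed DNA is lost in cells of that lineage and kept elsewhere. The labels give neither age nor sex and do not say outright that libraries are separate animals, so p-values measure the spread between these libraries. No Cre control was analysed here, and Cre itself and the loss of Cic cannot be told apart.

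Glutamate is the transmitter of the excitatory cells of the cerebellum. Granule cells load it into vesicles and release it from parallel fibres onto Purkinje cells, where AMPA receptors carry the fast current and metabotropic receptors act more slowly through G proteins. Scaffold proteins of the Dlg, Shank and Homer families tether these receptors beneath the membrane. Cic encodes a transcriptional repressor that works in a complex with ATXN1, the protein expanded in spinocerebellar ataxia type 1, and the comparison asks how these genes stand when Cic is lost.

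The libraries held between 102653765 and 121285349 gene counts each. Levels are given in CPM (counts scaled to library size with TMM factors), and tests are edgeR's quasi-likelihood test with Benjamini-Hochberg adjustment over the 16905 genes that passed a filter on low counts, with a call at an adjusted p below 0.05. Cic, the targeted gene, fell to 144 to 147 CPM in CicKO libraries, against 216 to 257 CPM in Wildtype libraries (log2 fold change -0.66, SE 0.0622, adjusted p = 0.00256). The choroid plexus gene Ttr was at 8006 CPM in CicKO 3 and 5814 CPM in Wildtype 3 and at no more than 112 CPM in the other libraries. Xist, the RNA of the inactive X chromosome, was at 1556 and 1596 CPM in CicKO 1 and CicKO 2 and between 0.456 and 14.7 CPM in the other 5 libraries, none of the Wildtype libraries being high. Granule cell markers (9 of 9 tested, 0 called) summed to 5072 to 5938 CPM in CicKO and 5385 to 5920 CPM in Wildtype libraries. Among them, Chn2 was lower in every CicKO library (533 to 631 CPM, against 692 to 753 CPM in Wildtype libraries). Etv1 was higher in every CicKO library (399 to 426 CPM, against 342 to 366 CPM), and the other granule cell markers overlapped between the groups.

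Grik1 rose in CicKO cerebellum, and edgeR called no glutamate gene lower. Of the 41 members 40 passed the filter, and 1 was called higher and 0 lower, where 1.25% of all tested genes were called higher and 0.828% lower. At an unadjusted p below 0.05 stood 5 higher and 2 lower members (17.5%, against 16.2% of all genes), and DESeq2 called 3 higher and 2 lower. That is 12.5% of the members, against 7.3% of the 16167 genes to which DESeq2 gave an adjusted p (4.19% higher and 3.11% lower). The edgeR share called in either direction was 2.5% among the tested members and 2.08% among all genes tested. Groups that do not overlap were found for 6 members, 4 of them higher and 2 lower in CicKO, or 15% of those tested, close to the 15.4% of all tested genes (7.06% higher and 8.36% lower). The members' median log2 fold change was 0.06 (quartiles -0.04 and 0.19), and it was -0.00 over all tested genes (quartiles -0.10 and 0.11). For 32 of the 40 members (80%) the 95% interval of the fold change lay within a 1.5-fold change in either direction, as it did for 69.9% of all genes tested. The remaining member, Grm6, a receptor of retinal bipolar cells, had 1, 0, 0 and 1 counts in CicKO 1 to 4 and 1, 0 and 0 counts in Wildtype 1 to 3, below the limit of 3 counts, and no fold is given.

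**Figure D1:**
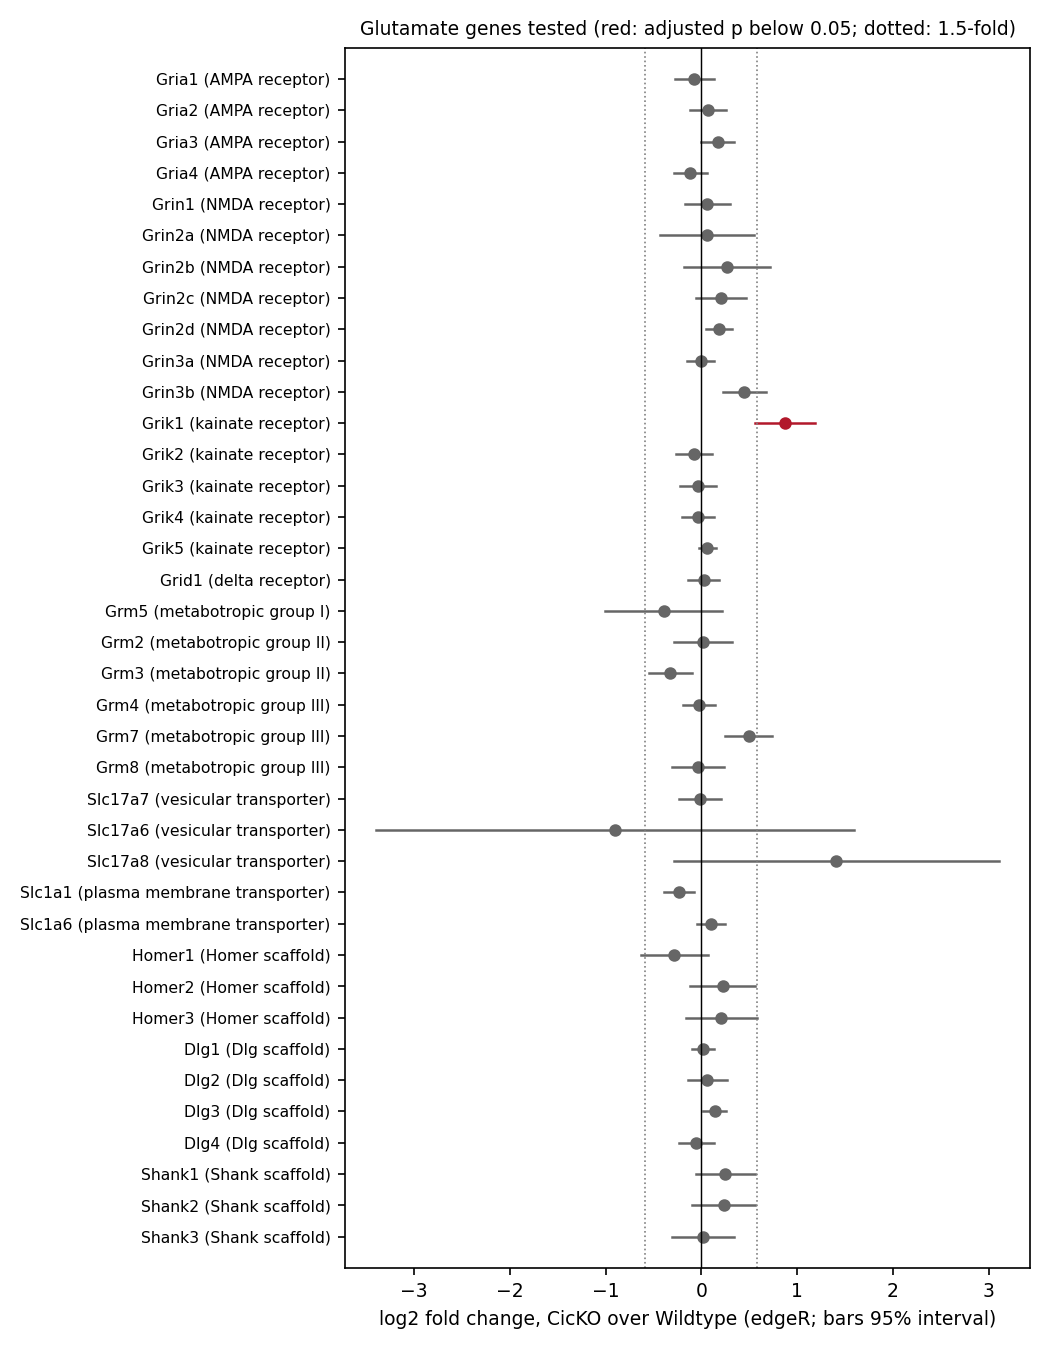
Log2 fold change of CicKO over Wildtype for 38 of the 40 tested glutamate genes, ordered by role from AMPA receptors at the top to Shank scaffolds at the bottom. Points are edgeR estimates, bars are 95% intervals, dotted lines mark a 1.5-fold change, and red marks an adjusted p below 0.05, which Grik1 alone had. Intervals are widest for Slc17a6 and Slc17a8.

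Among kainate receptors, Grik1 rose and its 4 relatives were not called. Grik1 encodes the subunit GluK1 and lies on chromosome 16 at 87895900 to 88290265 (GRCm38, GENCODE M21, minus strand). Its level was 77.1, 70.2, 52.2 and 75.2 CPM in CicKO 1 to 4, against 35.9, 40.9 and 35.8 CPM in Wildtype 1 to 3. Every CicKO library lay above every Wildtype library, with CicKO 3 the lowest of its group. The means were 68.7 ± 11.4 CPM in CicKO and 37.5 ± 2.89 CPM in Wildtype (SD, n = 4 and 3), a 1.83-fold difference (log2 fold change 0.87, SE 0.134, 95% interval 0.56 to 1.18, adjusted p = 0.0227 in edgeR). The log2 fold change was 0.95 (SE 0.075, adjusted p = 0.00228) without both libraries numbered 3, and 0.77 (SE 0.157, adjusted p = 0.217) in the 5 libraries with low Xist, where CicKO 3 and 4 remain.

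The call of Grik1 depended on which libraries entered. In edgeR it was not made without CicKO 1 (adjusted p = 0.0698), CicKO 2 (0.0646), CicKO 4 (0.0776), Wildtype 1 (0.103) or Wildtype 3 (0.106), nor when Xist (0.0723) or the percentage of entries in no gene (0.256) was a covariate. Its fold change stayed between 0.77 and 0.98 on the log2 scale over all 19 alternatives, and 11 of them called it. Over these alternatives the adjusted p ranged between 5.91e-09 in DESeq2 and 0.256. The percentage of entries in no gene was 18.2 to 19.0% in CicKO libraries and 16.0, 18.6 and 16.5% in Wildtype 1 to 3. It thus went largely with genotype, and the fit that holds it cannot fully separate the 2.

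**Figure D2:**
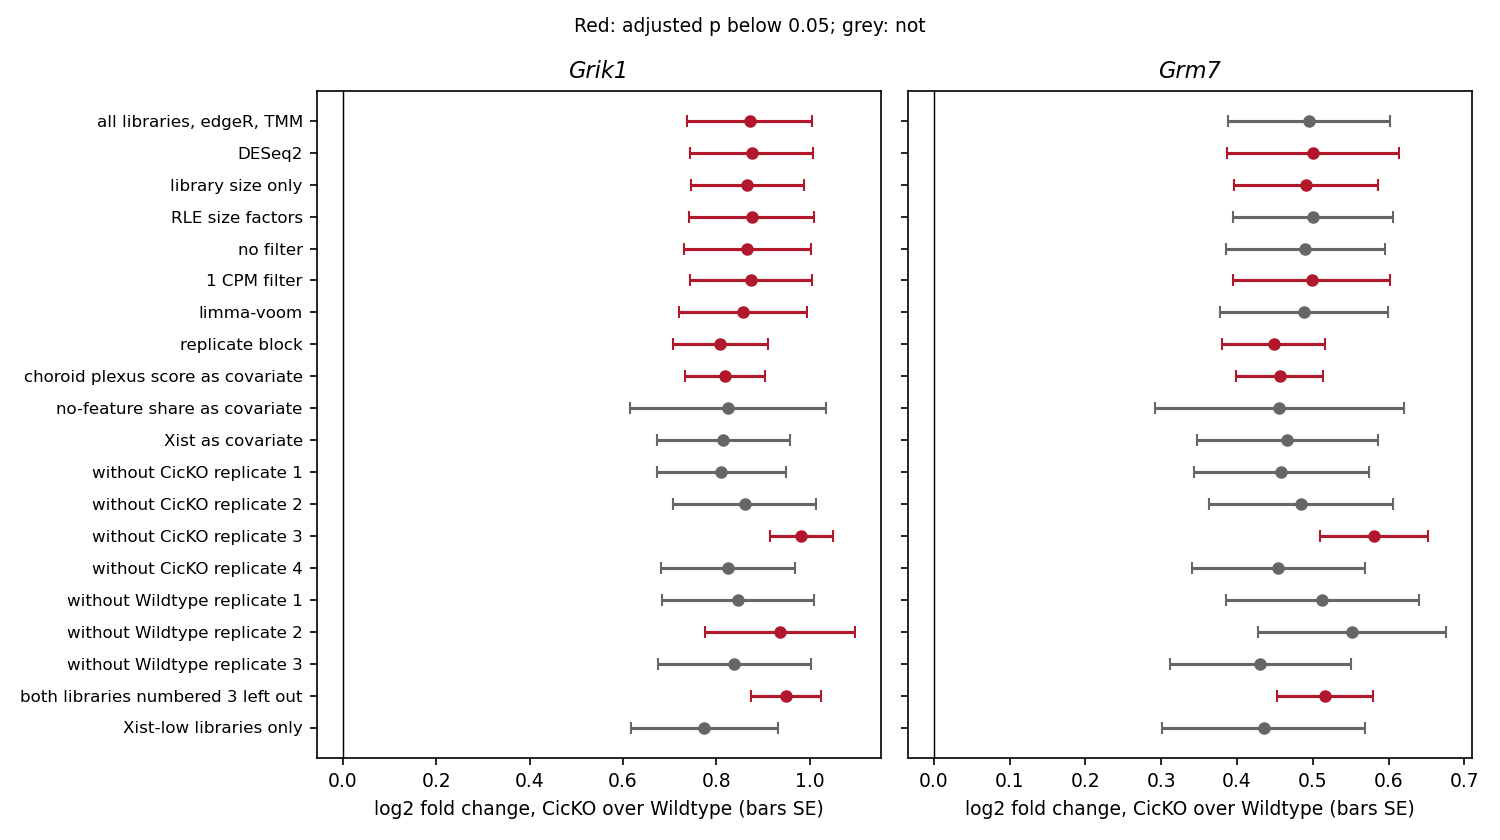
Log2 fold change of CicKO over Wildtype for Grik1 (left) and Grm7 (right) under each setting, with bars of 1 SE. Red marks an adjusted p below 0.05 and grey a larger one. All estimates of both genes are above 0, between 0.77 and 0.98 for Grik1 and between 0.43 and 0.58 for Grm7.

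Of 3 marker sums set beside Grik1, 2 did not overlap between the groups, and their part in the result for Grik1 was not tested. Markers of molecular layer interneurons (5 of 5 tested, 0 called) summed to 444 to 505 CPM in CicKO and 408 to 413 CPM in Wildtype libraries. Most of that sum is Kit (321 to 369 CPM in CicKO and 280 to 290 CPM in Wildtype libraries), while Npy was lower in every CicKO library (4.44 to 8.53 CPM in CicKO and 10.2 to 14.2 CPM in Wildtype libraries), and the median log2 fold change of the list was 0.05. The sum for oligodendrocyte precursors (4 tested, 1 called lower) was 74.6 to 90.7 CPM in CicKO and 96.0 to 104 CPM in Wildtype libraries. The called marker was Olig1 (log2 fold change -0.39, adjusted p = 0.0412), and Pdgfra and Cspg4 had log2 fold changes of 0.02 and 0.13. Purkinje cell markers (8 tested, 0 called) summed to 8587 to 12620 CPM in CicKO and 8829 to 10685 CPM in Wildtype libraries, so that the groups overlapped. Among the CicKO libraries all 8 Purkinje cell markers were lowest in CicKO 3, as Grik1 was. So were the granule cell markers other than Zic1 and Zic2. An example, chosen after its values were seen, is Calb1 of Purkinje cells. It was at 1499, 1412, 1040 and 1615 CPM in CicKO 1 to 4, and 1202, 1303 and 1200 CPM in Wildtype 1 to 3. All markers of these lists were detected. In bulk tissue, fewer cells of a type and less RNA per cell cannot be told apart.

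The other kainate subunits differed little between the groups. Grik5, the most abundant of the family per kb of exon, was at 87.3, 87.4, 89.7 and 86.4 CPM in CicKO and 81.4, 87.0 and 83.4 CPM in Wildtype libraries (log2 fold change 0.06, 95% interval -0.03 to 0.16). It lies on chromosome 7 at 25009849 to 25072346, 195.4 kb from Cic (25267704 to 25294159). Log2 fold changes of Grik2, Grik3 and Grik4 were -0.08, -0.03 and -0.04, and their 95% intervals ran from -0.26 at the lowest to 0.15 at the highest. Per kb of exon, Grik1 made up 21.3, 21.0, 15.8 and 22.5% of kainate receptor transcripts in CicKO libraries and 11.7, 12.8 and 11.8% in Wildtype libraries. This share, taken within each library, does not depend on the scaling between libraries.

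**Figure D3:**
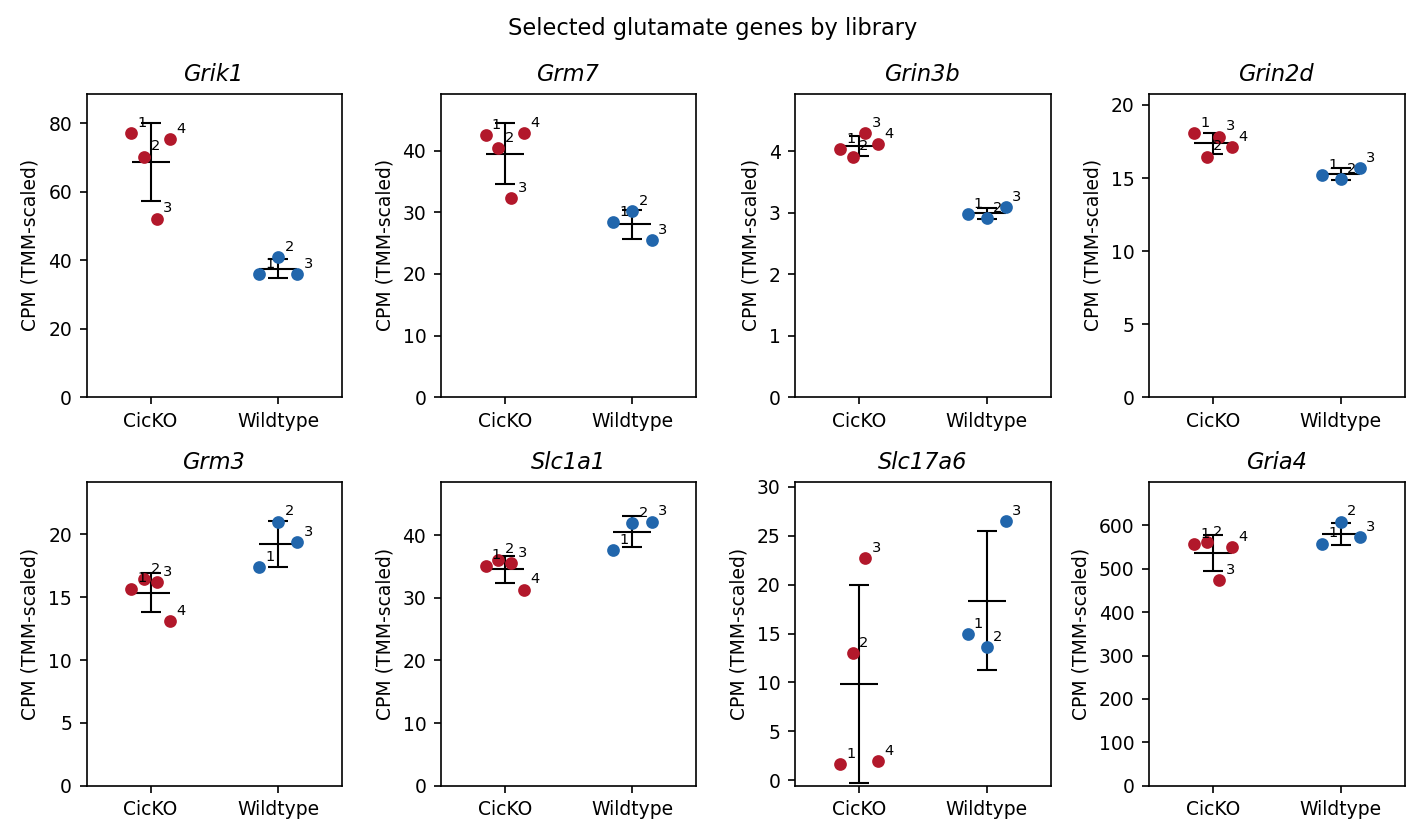
TMM-scaled CPM of 8 glutamate genes in each library, with CicKO on the left and Wildtype on the right of each panel. Numbers beside the points are replicate numbers, and black bars are the mean and SD. The groups do not overlap for Grik1, Grm7, Grin3b, Grin2d, Grm3 and Slc1a1, and they overlap for Slc17a6 and Gria4.

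NMDA receptors, which need Grin1 and a Grin2 subunit and pass calcium, gave no call. Grin2c, the subunit of mature granule cells, made up 96.6 ± 0.177% of Grin2 transcripts per kb in CicKO and 96.5 ± 0.586% in Wildtype libraries. It was at 459, 430, 416 and 431 CPM in CicKO 1 to 4, against 352, 456 and 320 CPM in Wildtype 1 to 3, with Wildtype 2 inside the CicKO range (log2 fold change 0.21, SE 0.113, adjusted p = 0.419). Its value depended on single libraries and on the share of entries in no gene. In edgeR the log2 fold change was 0.37 without Wildtype 2 (adjusted p = 0.0373, the only call among the alternatives), 0.10 without Wildtype 3 (0.769), 0.12 without both libraries numbered 3 (0.652) and -0.02 with the share of entries in no gene as covariate (0.99). Grin1, the obligatory subunit, averaged 210 ± 10.96 CPM in CicKO and 201 ± 34.0 CPM in Wildtype libraries, although 1307 of its 9700 exon bases overlap Grin1os on the other strand. Grin2a was at 5.03 to 6.58 CPM in CicKO and 3.92 to 7.75 CPM in Wildtype libraries. Grin2b, a subunit of immature granule cells, was at 1.69 to 2.61 CPM in CicKO and 1.62 to 2.30 CPM in Wildtype libraries.

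The less common NMDA subunits Grin3b and Grin2d lay higher in every CicKO library than in any Wildtype library without passing the test. Grin3b was at 4.04, 3.91, 4.29 and 4.11 CPM in CicKO and 2.97, 2.91 and 3.09 CPM in Wildtype libraries (1.37-fold, log2 fold change 0.45, SE 0.1, adjusted p = 0.0652). It was called by DESeq2 (adjusted p = 0.00128) and in a fit that also held the choroid plexus score (0.0404), within a range of 0.00128 to 0.386 over the alternatives. Of its 3296 exon bases 1059 overlap exons of Tmem259 on the other strand, and since the strand setting of the counting is not given, its level is uncertain. Tmem259 itself had a log2 fold change of 0.06 at a mean of 125 CPM in Wildtype libraries. Grin2d, a slow subunit of interneurons, was at 18.1, 16.5, 17.8 and 17.1 CPM in CicKO and 15.2, 14.9 and 15.7 CPM in Wildtype libraries (log2 fold change 0.19, SE 0.0609, adjusted p = 0.182). Grin3a differed by -0.01 on the log2 scale (95% interval -0.15 to 0.13).

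AMPA receptors carry most of the fast excitatory current, and none of the 4 genes was called. Gria1, the most abundant per kb, was at 631, 624, 503 and 648 CPM in CicKO and 629, 633 and 637 CPM in Wildtype libraries (log2 fold change -0.07, 95% interval -0.28 to 0.13). CicKO 3 stood apart from the other CicKO libraries for this gene. Gria3, which is X-linked, was at 210, 199, 173 and 215 CPM in CicKO and 171, 183 and 176 CPM in Wildtype libraries (log2 fold change 0.17, SE 0.0752, adjusted p = 0.315), and without CicKO 3 it was called (0.23, adjusted p = 0.039 in edgeR). Gria2, whose subunit keeps AMPA receptors from passing calcium, had a log2 fold change of 0.07 (95% interval -0.12 to 0.25), and Gria4, with Gria1 a subunit of Bergmann glia, had -0.12 (95% interval -0.29 to 0.05).

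Shares within the AMPA family did not overlap between the groups for Gria3 and Gria4, and they overlapped for Gria1 and Gria2. Gria3 made up 8.53, 8.15, 8.31 and 8.59% of the family's transcripts per kb in CicKO libraries and 7.19, 7.18 and 7.27% in Wildtype libraries. Gria4 made up 35.3, 36.1, 35.5 and 34.4% in CicKO and 36.6, 37.3 and 37.0% in Wildtype libraries. Over the 34 such shares in 8 families, 10 had groups that do not overlap, 5 higher and 5 lower, and shares of 1 family are not independent since they add up to 100%. Such shares were not computed for other gene families, so this count has no background to stand beside. No test was made of the shares.

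**Figure D4:**
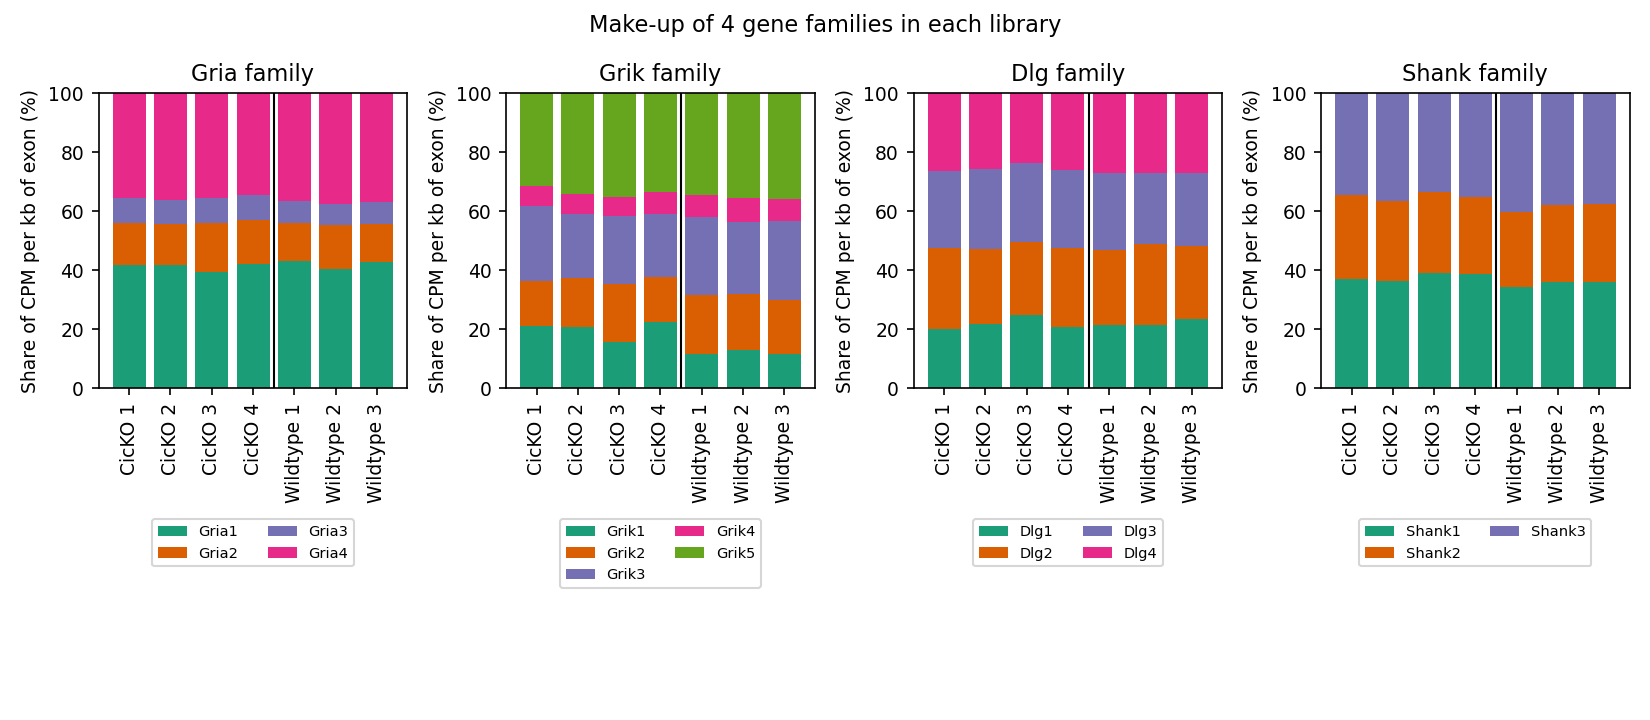
Share of each gene in its family, from CPM per kb of exon, in each library, with CicKO to the left of the line and Wildtype to the right. Grik1 fills 15.8 to 22.5% of the kainate family in CicKO and 11.7 to 12.8% in Wildtype libraries, while Shank3 fills 34.8% of its family in CicKO and 38.5% in Wildtype libraries on average.

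Delta receptors bind synaptic organisers rather than acting as glutamate-gated channels. Grid1 was not called, at 22.3 ± 1.44 CPM in CicKO and 22.0 ± 1.37 CPM in Wildtype libraries (log2 fold change 0.02, 95% interval -0.14 to 0.18).

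Metabotropic receptors act through G proteins, and Grm7 came closest to a call among them. This group III receptor damps transmitter release from nerve endings. Its level was 42.5, 40.5, 32.3 and 42.9 CPM in CicKO 1 to 4, against 28.5, 30.2 and 25.5 CPM in Wildtype 1 to 3. All CicKO libraries were above all Wildtype libraries, and CicKO 3 was again the lowest of its group. The difference was 1.41-fold (log2 fold change 0.50, SE 0.107, 95% interval 0.25 to 0.74) and was not called (adjusted p = 0.0617 in edgeR). It was called with the replicate number as a block (log2 fold change 0.45, adjusted p = 0.0125) and without CicKO 3 (0.58, adjusted p = 0.00446), and in 7 of 19 alternatives in all, with adjusted p between 0.000443 and 0.436.

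Group II receptors lower cyclic AMP, and Grm3, which glia also express, lay lower in every CicKO library. It was at 15.7, 16.5, 16.2 and 13.1 CPM in CicKO and 17.4, 21.0 and 19.4 CPM in Wildtype libraries (log2 fold change -0.33, SE 0.0986, adjusted p = 0.151). DESeq2 alone among the alternatives called it (adjusted p = 0.0457, the lowest of a range to 0.499). Bergmann glia and astrocyte markers (8 tested, 3 called lower, 0 higher) summed to 2880 to 3164 CPM in CicKO and 3586 to 3691 CPM in Wildtype libraries, with all markers detected, and their part in the level of Grm3 was not tested. The called markers were Gdf10, Aqp4 and Agt (log2 fold changes -0.59, -0.42 and -0.70). Most of the sum was Slc1a3 and Slc1a2, which were not called (-0.22 and -0.07), and Hopx alone was estimated higher (0.15). Grm2, a receptor of Golgi and unipolar brush cells, was at 21.7 ± 3.15 CPM in CicKO and 21.5 ± 2.80 CPM in Wildtype libraries.

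Grm4, Grm5 and Grm8 were not called and overlapped between the groups. Grm4, the group III receptor of granule cell endings and the most abundant of the family per kb, was at 393, 370, 397 and 372 CPM in CicKO and 419, 400 and 348 CPM in Wildtype libraries (log2 fold change -0.02, 95% interval -0.19 to 0.14). The group I receptor Grm5 was rare, at 5.40, 6.74, 10.1 and 4.57 CPM in CicKO and 8.38, 7.55 and 10.5 CPM in Wildtype libraries (log2 fold change -0.39, adjusted p = 0.517), and highest in the library numbered 3 of each group. Grm8 had a log2 fold change of -0.04 (95% interval -0.31 to 0.24).

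The vesicular transporters load glutamate into synaptic vesicles. Slc17a7 (VGLUT1), that of parallel fibres, was at 467, 448, 374 and 469 CPM in CicKO and 451, 477 and 403 CPM in Wildtype libraries, with a 95% interval of the log2 fold change of -0.23 to 0.20. It made up 97.6 ± 2.59% of the family's transcripts per kb in CicKO and 95.9 ± 1.85% in Wildtype libraries. Slc17a8 (VGLUT3) had 8, 18, 58 and 8 counts in CicKO and 6, 9 and 12 counts in Wildtype libraries, which leaves its fold change between -0.28 and 3.10 on the log2 scale.

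Slc17a6 (VGLUT2), the transporter of cerebellar nuclei and of most brain stem neurons, varied more among the CicKO libraries than any other tested member, with an SD of 103% of the mean. Its level was 1.60, 13.0, 22.7 and 1.95 CPM in CicKO 1 to 4 and 14.9, 13.6 and 26.5 CPM in Wildtype 1 to 3. CicKO 1 and CicKO 4 were far below all other libraries, and CicKO 2 and CicKO 3 were near or within the Wildtype range (log2 fold change -0.90, SE 1, 95% interval -3.39 to 1.59, adjusted p = 0.716). Spp1, another gene of the cerebellar nuclei, was at 17.4, 33.1, 38.2 and 17.9 CPM in CicKO and 54.8, 26 and 51.8 CPM in Wildtype libraries. The unipolar brush cell gene Eomes was at 17.0, 34.2, 51.2 and 17.2 CPM in CicKO and 29.5, 47.4 and 43.3 CPM in Wildtype libraries. Both genes, picked after their values were seen, had their lowest levels in CicKO 1 and CicKO 4, as Slc17a6 did, but other markers of the same lists did not. Nefh of the cerebellar nuclei was at 105, 112, 101 and 108 CPM in CicKO and 123.4, 124.4 and 124.9 CPM in Wildtype libraries (log2 fold change -0.22, adjusted p = 0.0492), and Calb2 and Plcb4 of the unipolar brush cell list were lowest in CicKO 3 of the CicKO libraries.

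Summed marker levels beside Slc17a6 went in different directions, and their part in its level was not tested. The 3 nuclei markers, Slc17a6 among them, summed to 124 to 162 CPM in CicKO and 164 to 203 CPM in Wildtype libraries (1 called lower). The 6 unipolar brush cell markers summed to 1017 to 1231 CPM in CicKO and 965 to 1052 CPM in Wildtype libraries (0 called). Calb2 made up most of that sum (523 to 744 CPM in CicKO and 426 to 608 CPM in Wildtype libraries), whereas the median log2 fold change of the list was -0.13. Eomes was at -0.42 (SE 0.443), Lmx1a at -0.27 (SE 1.21) and Otx2 at -0.49 (SE 1.08). Otx2 is also on the choroid plexus list and was highest in CicKO 3 (53.5 CPM) and Wildtype 3 (40.3 CPM). Markers of neighbouring brain stem, midbrain and forebrain (5 of 8 tested, 1 called higher) summed to 36.6 to 65.7 CPM in CicKO and 12.6 to 31.3 CPM in Wildtype libraries, without overlap. Most of it was Th (31.5 to 63.3 CPM in CicKO and 10.8 to 29.4 CPM in Wildtype libraries), and the called marker was Tph2 (1.92 to 5.07 CPM in CicKO and 0.653 to 1.03 CPM in Wildtype libraries, adjusted p = 0.0227).

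Of the uptake carriers of neurons, Slc1a1 (EAAC1) lay lower in every CicKO library and Slc1a6 (EAAT4) was not called. Slc1a1 was at 35.1, 36.1, 35.6 and 31.3 CPM in CicKO and 37.7, 41.9 and 42.2 CPM in Wildtype libraries (log2 fold change -0.23, SE 0.0679, adjusted p = 0.139), and DESeq2 called it (adjusted p = 0.0445, the lowest of a range to 0.494). Exons of 4430402I18Rik overlap 2631 of its 8257 exon bases on the other strand, which makes its level uncertain. Slc1a6, the carrier of Purkinje cells and the most abundant member per kb in Wildtype libraries, was at 259, 242, 255 and 284 CPM in CicKO and 252, 229 and 245 CPM in Wildtype libraries (log2 fold change 0.10, 95% interval -0.04 to 0.25).

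None of the 10 scaffold genes was called, in edgeR or under any of the alternatives, and Dlg3 alone had an unadjusted p below 0.05. Homer3, the Homer gene of Purkinje cells, made up 92.5 ± 2.77% of the family per kb in CicKO and 91.5 ± 1.62% in Wildtype libraries. Its level was 248, 222, 161 and 256 CPM in CicKO and 190, 211 and 174 CPM in Wildtype libraries, so that CicKO 3 was the lowest library and the other CicKO libraries the highest (log2 fold change 0.21, SE 0.158, adjusted p = 0.563). Exons of Ddx49 overlap 874 of its 3440 exon bases on the other strand. Homer1, whose short form is induced by activity, was at 26.7, 28.3, 35.3 and 30.2 CPM in CicKO and 28.1, 39.0 and 42.9 CPM in Wildtype libraries (log2 fold change -0.28, SE 0.151, adjusted p = 0.408). Homer2 had 0.22 (adjusted p = 0.503).

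The Dlg proteins, among them PSD-95 encoded by Dlg4, anchor NMDA and AMPA receptors. Dlg3 (SAP102), which is X-linked, was at 149, 151, 137 and 152 CPM in CicKO and 141, 131 and 130 CPM in Wildtype libraries (log2 fold change 0.14, SE 0.053, adjusted p = 0.24). CicKO 3 alone fell within the Wildtype range. Dlg4 was at 344, 323, 274 and 335 CPM in CicKO and 335, 335 and 321 CPM in Wildtype libraries (log2 fold change -0.05, 95% interval -0.23 to 0.13), and Dlg2 was at 407 ± 39.4 CPM in CicKO and 389 ± 31.6 CPM in Wildtype libraries. Dlg1 (SAP97) differed by 0.02 (95% interval -0.10 to 0.14).

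Shank proteins link the Dlg and Homer layers of the postsynaptic density. Shank1 was at 319, 263, 238 and 304 CPM in CicKO and 212, 280 and 217 CPM in Wildtype libraries, with Wildtype 2 inside the CicKO range (log2 fold change 0.25, SE 0.132, adjusted p = 0.4). Exons of 1700008O03Rik overlap 339 of its 10514 exon bases on the other strand. Shank2, whose loss from Purkinje cells alters motor learning in mice, had a log2 fold change of 0.23 (adjusted p = 0.472). Shank3, the most abundant of the family per kb in Wildtype libraries, was at 259, 229, 176 and 240 CPM in CicKO and 215, 257 and 198 CPM in Wildtype libraries (log2 fold change 0.02, 95% interval -0.30 to 0.34). Shank3 made up 34.5, 36.4, 33.3 and 35.0% of the family per kb in CicKO and 40.1, 37.9 and 37.5% in Wildtype libraries.

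**Figure D5:**
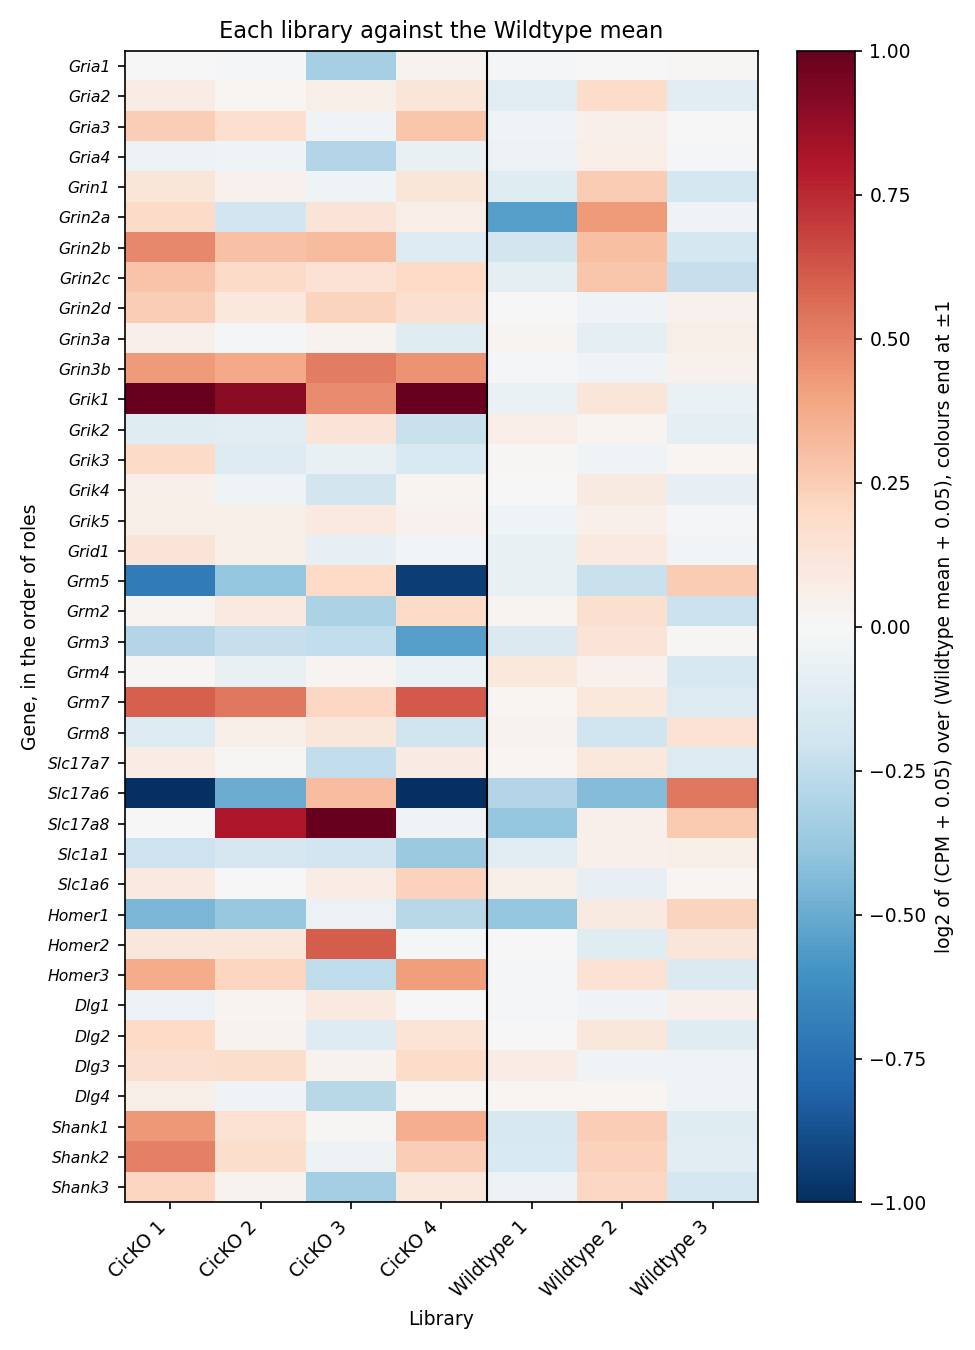
Each library's level of 38 of the 40 tested genes against the Wildtype mean, as log2 of CPM plus 0.05, with CicKO libraries left of the line and Wildtype libraries to its right, and colours ending at 1 in either direction. Grik1, Grm7 and Grin3b are above the Wildtype mean in all 4 CicKO libraries. CicKO 3 is pale or blue where the other CicKO libraries are red for Homer3 and Shank2, and Slc17a6 is deep blue in CicKO 1 and CicKO 4.

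Some libraries stood at the edge of their group for many members at once. CicKO 3 held the lowest level of the 4 CicKO libraries for 20 of the 40 members and the highest for 11, and CicKO 1 the highest for 16. Among the 3 Wildtype libraries, Wildtype 2 held the highest level for 22 members and the lowest for 10. The SD was 10.0% of the mean in CicKO and 8.49% in Wildtype libraries for the median member. It was over 20% for 4 members in CicKO and 5 in Wildtype libraries.

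CIC binds the octamers TGAATGAA and TGAATGGA, and the stretches just upstream of the members were read for them on both strands. RefSeq promoter windows on GRCm38.p6, from 250 bases before to 50 after a start site, matched 28 of the 41 members with 43 windows. Members without one include Gria1, Gria3, Grik1, Grin2a, Grin2b, Grin3a, Grid1, Grm4, Grm5, Shank1 and Shank2. Either octamer occurred in 1 of the 43 windows, that of a start of Dlg1, and in 2.47% of all 32851 windows. Shown here are the windows of Grm7 (chr6:110645348-110645647) and Grin3b (chr10:79970474-79970773), whose levels do not overlap between the groups, and that of Dlg1 (chr16:31695298-31695597), whose level was flat, all on the plus strand and with any octamer in capitals.
Grm7: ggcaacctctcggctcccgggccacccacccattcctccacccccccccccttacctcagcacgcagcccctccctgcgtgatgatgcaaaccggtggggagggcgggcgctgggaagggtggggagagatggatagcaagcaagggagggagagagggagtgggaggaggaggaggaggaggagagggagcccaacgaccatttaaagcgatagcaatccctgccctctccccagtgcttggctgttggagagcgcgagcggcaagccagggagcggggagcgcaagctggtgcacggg
Grin3b: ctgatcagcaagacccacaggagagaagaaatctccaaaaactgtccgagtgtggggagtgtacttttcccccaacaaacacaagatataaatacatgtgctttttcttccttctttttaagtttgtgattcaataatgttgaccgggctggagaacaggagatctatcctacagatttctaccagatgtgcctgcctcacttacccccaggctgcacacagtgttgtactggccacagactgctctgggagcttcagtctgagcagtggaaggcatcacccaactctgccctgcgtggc
Dlg1: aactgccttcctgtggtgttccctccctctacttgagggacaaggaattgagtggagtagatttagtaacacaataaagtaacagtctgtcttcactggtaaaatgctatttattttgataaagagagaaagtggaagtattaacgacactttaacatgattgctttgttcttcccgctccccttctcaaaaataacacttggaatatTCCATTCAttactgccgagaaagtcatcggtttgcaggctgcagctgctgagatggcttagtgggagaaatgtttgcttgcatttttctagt
In the Dlg1 window the octamer lies on the strand opposite to the gene, with its leftmost base 42 bases before the start (position -42), while the level of Dlg1 was 223 ± 9.99 CPM in CicKO and 220 ± 7.28 CPM in Wildtype libraries. The Grm7 and Grin3b windows hold neither octamer, which says only that these letters are not in these windows. The Grm7 window has 15 CG steps, the Grin3b window 3 and the Dlg1 window 4. The median is 12 over the 43 member windows and 7 over all windows.

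Of 69 other genes of the glutamate synapse, all of them tested, 2 rose in CicKO and none fell (2.90% called, against 2.08% of all genes tested). Shisa7, an auxiliary protein of AMPA receptors that also acts on GABA-A receptors, was at 44.5, 42.6, 43.9 and 45.1 CPM in CicKO and 26.6, 30.2 and 24.5 CPM in Wildtype libraries (1.63-fold, log2 fold change 0.70, SE 0.0729, adjusted p = 0.00328). It was called under every single omission of a library, and it missed the threshold when the percentage of entries in no gene was a covariate (adjusted p = 0.0588) and in the libraries with low Xist alone (0.0771). Kalrn, an exchange factor that shapes dendritic spines, was at 94.3, 88.2, 80.8 and 101 CPM in CicKO and 66.6, 70.1 and 71.0 CPM in Wildtype libraries (1.32-fold, log2 fold change 0.40, SE 0.0737, adjusted p = 0.0369). It was not called in edgeR without CicKO 1 (adjusted p = 0.116), CicKO 2 (0.0825), CicKO 4 (0.0838), Wildtype 1 (0.144), Wildtype 2 (0.058) or Wildtype 3 (0.125). Nor was Kalrn called with Xist or the percentage of entries in no gene as covariate, or in the libraries with low Xist alone. In all, 10 of 19 alternatives called Kalrn, and its adjusted p reached 0.319 in edgeR.

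Among the 13 AMPA auxiliary genes 8 were estimated higher and 5 lower in CicKO (median log2 fold change 0.13), and edgeR called 1 higher and 0 lower. At an unadjusted p below 0.05 stood 1 higher and 3 lower (30.8%, against 16.2% of all genes), and the same 4 had no overlap between the groups (15.4% of all genes, 8.36% lower). The lower ones, Shisa9, Cacng3 and Cacng8, had log2 fold changes of -0.38, -0.25 and -0.38 (adjusted p = 0.098, 0.181 and 0.207). These 3 were named after their values were seen. Shisa9 was called lower with the replicate number as a block (-0.43, adjusted p = 0.0156), by DESeq2 (-0.37, 0.00908) and in a fit with the choroid plexus score (-0.40, 0.0343). Of 22 receptor partners and synaptic organisers 0 were called by edgeR, and 1 higher and 1 lower stood at an unadjusted p below 0.05 (9.09%, below the 16.2% of all genes). The 12 genes of the postsynaptic density had Kalrn alone called, with 2 higher and 2 lower at an unadjusted p below 0.05 (33.3%, above that share). The 10 genes of group I receptor signalling had 0 called and 1 higher at that p (10%, below it). Slc1a3 (GLAST), the main glutamate carrier of Bergmann glia, averaged 1339 CPM in CicKO and 1563 CPM in Wildtype libraries (log2 fold change -0.22, adjusted p = 0.223), beside the lower astrocyte marker sum given above, to which it belongs.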

How the data were processed

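Per the labels' protocols, total RNA of cerebellum was amplified with the NuGEN Ovation RNA-Seq v2 kit, which primes on poly(A) tails and at random, before sequencing. The authors deposited raw read counts per gene for each of 7 libraries. The submitters' processing notes name STAR 2.5.3a, HTSeq, DESeq2 and the build mm10. No source used here gives the HTSeq version, its strand setting or the annotation.

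Each table held 24421 gene rows and 5 summary rows, which were left out. Entries assigned to no gene were 18.2, 18.4, 19.0 and 18.8% in CicKO 1 to 4 and 16.0, 18.6 and 16.5% in Wildtype 1 to 3. Wildtype 2 alone of its group lay in the CicKO range. A fit with this covariate therefore cannot fully separate the share from genotype. Counts were fitted in edgeR 4.0.16 (R 4.3.3) with filterByExpr, TMM, glmQLFit with robust estimation and glmQLFTest on genotype alone, with Benjamini-Hochberg adjustment over 16905 genes. The SE is the log2 fold change over the square root of F. At these depths 3 counts correspond to 0.0245 to 0.0295 CPM. Levels per kb used exon unions of GENCODE M21. DESeq2 1.42.0, limma 3.58.1 and other scalings, filters, covariates and library sets were tried as alternatives. The script was tested on simulated data.

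A few genes of the lists are counted but not reported by name here. The members and gene lists were chosen with earlier results of these data known. Values per library are given for members called in any setting and, in each role, for the member with the smallest adjusted p and the most abundant one. Deviations of libraries with the same replicate number correlated at 0.145, 0.288 and 0.713, all above 0.1, but CicKO 1 and CicKO 4 correlated with Wildtype 2 at 0.319 and 0.297, and no label says what a number marks. No library was a copy of another: differences within a group exceeded counting noise by 18.5 to 157 times in variance.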

Additional observations from a re-analysis of the deposited data

Results flagged for a closer look

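CicKO 3 lay far from the other CicKO libraries for a pair of AMPA receptor genes. Gria1 was at 503 CPM in CicKO 3 and at 624 to 648 CPM in the other 3, a gap of 0.854 of the group's range on the log2 scale, above Dixon's 95% limit for 4 samples. Gria4 was at 473 CPM in CicKO 3 and at 550 to 562 CPM in the other 3, a gap of 0.869 of the range. Wildtype libraries were at 629, 633 and 637 CPM for Gria1 and at 558, 609 and 574 CPM for Gria4. Of 43 genes examined 2 were flagged, and chance flags about 1 in 20. CicKO 3 is also the CicKO library with the high choroid plexus score (6.62, against 0.62 to 1.37 in the other CicKO libraries, in mean log2 CPM). Wildtype 3 had a score of 6.02, against 1.22 and 1.60 in Wildtype 1 and 2, and was not the lowest Wildtype library for either gene. The part of the score in these levels was not tested.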

How the results depend on the processing

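The number of glutamate genes called higher was 3 in DESeq2, 2 by library size alone, 2 with a filter of 1 CPM, 2 with the replicate number as a block, 3 with the choroid plexus score, 0 with the share of reads outside genes, 0 with Xist as covariate, 2 without both libraries numbered 3, 0 in the 5 libraries with low Xist (chosen after seeing the data), and 0 to 3 when single libraries were left out. None was called lower except 2 in DESeq2. Calls over all genes were 1180 in DESeq2, 514 with the block, 679 with the choroid plexus score, 58 with the share outside genes, 104 with Xist, 18 in the low-Xist libraries, and 86 (without CicKO 1) to 842 (without CicKO 3) leaving out single libraries. Other glutamate synapse genes called higher were 0 with the share outside genes, 1 with Xist, 0 in the low-Xist libraries and 1 to 4 leaving out single libraries. 1 was called lower in DESeq2, with the block and with the choroid plexus score. The causes were not tested. Of 756 member values under 19 alternatives, 735 stayed on the same side of the threshold, 13 gained and 8 lost a call. Signs changed for 16 of 40 members, all within 0.21 of 0 on the log2 scale. The block changed no other call among the members than that of Grm7. Depth limits Slc17a8 and Grm6, and 3 Wildtype libraries limit every comparison.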
